A study of Homo sapiens with 8 samples.

Results

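KLF9, MAP3K3 and KPNA6 encode a transcription factor, a protein kinase and a nuclear import adaptor. They were taken by gene symbol from the platform annotation. The 3 genes are 3 of 14812 genes with a named row on the array, and each has 1 row. All 3 were bright enough to be among the 11109 genes tested. They were chosen by a measured value, the log2 intensity difference between knockdown and control in these same 8 arrays, which passed the test over all genes downwards. Their knockdown differences are therefore given as a description, with no test.

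The arrays come from the human multiple myeloma lines OPM2, KMS34, KMS18 and KMS11, 4 in number, each with the t(4;14) translocation. This rearrangement joins the immunoglobulin heavy chain locus to the region of NSD2 (MMSET), which encodes a histone methyltransferase. Each line gave 1 control culture and 1 culture with an shRNA against MMSET I, a short isoform of that gene, so there were 4 control and 4 knockdown arrays. All 8 cultures are labelled as t(4;14) lines that received lentivirus in 8 µg/mL polybrene, new medium after 24 h and RNA extraction after another 48 h, and the series text gives 72 h of shRNA. What the control received and the shRNA sequence are not given in the sources used here. Each line is 1 established culture model, and no line had replicate arrays in a condition.

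KLF9 is a zinc-finger factor that binds GC-rich and CACCC elements, mostly as a repressor, and its gene is a well-known target of glucocorticoids, which are used to treat myeloma. MAP3K3 (MEKK3) phosphorylates MAP2K5, which in turn activates the kinase ERK5 (MAPK7), and it also feeds the p38, JNK and NF-kB pathways. KPNA6 is an importin alpha: it binds the classical nuclear localization signal of a cargo protein, docks to importin beta (KPNB1) and crosses the nuclear pore, after which Ran releases the cargo and CSE1L returns the adaptor to the cytoplasm.

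The 3 promoters are shown because the genes were lower in the same arrays. RefSeq sequences on GRCh38.p14 were matched by symbol for 3 of 3 genes. The stretches are the 250 bases before the annotated start, 5′ to 3′ on the gene's strand, at chr9:70414658-70414907 (minus strand) for KLF9, chr17:63622167-63622416 (plus strand) for MAP3K3 and chr1:32107806-32108055 (plus strand) for KPNA6. Capitals mark CCAAT or its complement ATTGG.
KLF9: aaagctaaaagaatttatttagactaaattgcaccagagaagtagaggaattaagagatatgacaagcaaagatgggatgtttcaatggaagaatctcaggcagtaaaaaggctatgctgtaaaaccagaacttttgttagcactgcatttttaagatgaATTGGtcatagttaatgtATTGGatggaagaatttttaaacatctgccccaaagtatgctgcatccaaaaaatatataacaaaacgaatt
MAP3K3: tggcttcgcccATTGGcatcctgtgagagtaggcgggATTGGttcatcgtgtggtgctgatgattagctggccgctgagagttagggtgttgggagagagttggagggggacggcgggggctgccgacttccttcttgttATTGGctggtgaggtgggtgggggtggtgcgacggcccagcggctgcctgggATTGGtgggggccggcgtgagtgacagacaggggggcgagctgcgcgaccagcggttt
KPNA6: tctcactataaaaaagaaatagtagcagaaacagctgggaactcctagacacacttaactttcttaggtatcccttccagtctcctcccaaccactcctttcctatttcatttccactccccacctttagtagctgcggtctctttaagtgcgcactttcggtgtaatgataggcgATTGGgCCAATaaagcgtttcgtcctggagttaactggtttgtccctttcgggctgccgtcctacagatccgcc
All 3 windows hold the CCAAT sequence on one strand or the other, as do 32% of 35116 promoter windows of this length. KLF9 has 2 matches, with first bases at -90 and -72 from the start. MAP3K3 has 4, at -239, -213, -110 and -58. KPNA6 has 2, at -74 and -68, on opposite strands. At least 2 matches occur in 9.53% of windows and at least 4 in 0.874%.

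The windows differ otherwise. GC content is 32.4% for KLF9, 64% for MAP3K3 and 47.2% for KPNA6, against a median of 58% over all windows. CACCC, searched on both strands like the other motifs, occurs 3 times in the MAP3K3 window and not in the others (54.7% of windows hold it). TATAAA occurs 1 time in the KPNA6 window (10.7% of windows). The letters GGGCGG (42.6% of windows), CACGTG (6.34%), TGACGTCA (1.65%), TGACNNNGC (10.9%) and the glucocorticoid response motif AGAACA (12.4%) are in none of the 3 stretches. The reference table has 1 start per gene, and any other start was not searched. CCAAT and TATAAA share no letters of a match here, and a match is a run of letters, not a measured binding site.

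The intensities that follow are the authors' linear values, 1 per array and gene, and differences are log2 of the knockdown intensity minus log2 of the control intensity of the same line. The series is about what loss of MMSET I does to expression, and the first comparison is that of knockdown and control within lines. All 3 genes were lower in 4 of 4 lines, as were 8.76% of the 11109 tested genes. The choice of the genes fixed this direction. The 3 were among 11 genes (0.099% of those tested) that passed a Benjamini-Hochberg adjusted p of 0.05 downwards in limma, and 0.018% passed upwards. That call did not hold for any of the 3 when a line was left out: 4 genes passed with KMS11 left out, 2 with KMS34 left out and 1 each with KMS18 or OPM2 left out, and 0 of the 3 were among them. It was also lost with no filter on dim genes (4 genes passed), with the line as a random block (3) and with no block (0). All 3 kept the call with quantile normalization, median centring, array weights, the filter at the 50th percentile and a trended and robust variance. These are refits of the arrays by which the genes were chosen, so a kept call is no further support.

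The transcription factor gene KLF9 had control intensities of 378 (KMS11), 241 (KMS18), 375 (KMS34) and 110 (OPM2). Its knockdown intensities were 270 (KMS11), 183 (KMS18), 277 (KMS34) and 89.7 (OPM2). The groups overlapped, since the controls of KMS18 and OPM2 lay below the knockdown arrays of KMS11 and KMS34. The mean was 276 ± 128 (SD, n = 4) in controls and 205 ± 87.9 after knockdown, 25.8% lower. Within lines the log2 difference of KLF9 was -0.48 (KMS11), -0.40 (KMS18), -0.44 (KMS34) and -0.30 (OPM2), with a mean of -0.40 ± 0.080 (SD over lines, n = 4). Its spread was the smallest of the 3 genes, and the median SD over all tested genes was 0.129. The test by which the genes were chosen favours a small spread, so this is no separate trait of KLF9. OPM2, where KLF9 was dimmest, had the smallest difference.

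The kinase gene MAP3K3 had control intensities of 200.1 (KMS11), 182 (KMS18), 189.5 (KMS34) and 133 (OPM2). After knockdown it had 136 (KMS11), 122 (KMS18), 134 (KMS34) and 117 (OPM2). The OPM2 control lay among the knockdown values of the other lines, and the other 3 controls lay above every knockdown array. The mean was 176 ± 29.7 (SD, n = 4) in controls and 127 ± 9.13 after knockdown, 27.9% lower. The control arrays of MAP3K3 spanned 1.503-fold and the knockdown arrays 1.16-fold, so the lines lay closer together after knockdown. The log2 difference was -0.56 (KMS11), -0.58 (KMS18), -0.50 (KMS34) and -0.19 (OPM2), with a mean of -0.46 ± 0.18 (SD over lines, n = 4). The mean rests mostly on KMS11, KMS18 and KMS34, and without OPM2 it was -0.55. In OPM2, 10.5% of the tested genes had a difference as low as that of MAP3K3 or lower, against 0.297% in KMS11, 0.108% in KMS18 and 0.315% in KMS34.

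The import adaptor gene KPNA6 had control intensities of 642 (KMS11), 335 (KMS18), 382 (KMS34) and 369 (OPM2). After knockdown it had 481 (KMS11), 224 (KMS18), 310.5 (KMS34) and 283 (OPM2). KMS11 was highest in both conditions, and its knockdown array exceeded the controls of the other 3 lines. The mean was 432 ± 141 (SD, n = 4) in controls and 324 ± 110.2 after knockdown, 24.9% lower. The log2 difference of KPNA6 was -0.42 (KMS11), -0.58 (KMS18), -0.30 (KMS34) and -0.39 (OPM2), with a mean of -0.42 ± 0.12 (SD over lines, n = 4). In KMS18 it was the 11th lowest difference of all tested genes and MAP3K3 was the 12th, 1.496-fold and 1.49-fold lower.

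The line with the largest difference was thus not the same for the 3 genes. It was KMS11 for KLF9 and KMS18 for KPNA6. For MAP3K3 it was KMS18, nearly equal to KMS11 (-0.58 and -0.56). The smallest was in OPM2 for KLF9 and MAP3K3 and in KMS34 for KPNA6. By mean difference MAP3K3 ranked 5, KPNA6 ranked 10 and KLF9 ranked 11 from the lowest of 11109 genes. The control and knockdown groups overlapped for each of the 3, while 0.234% of tested genes had every knockdown array below every control array. On bulk arrays, less RNA per cell and fewer expressing cells cannot be told apart. There was 1 array per line and condition, so a difference in size between lines has no test.

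**Figure D1:**
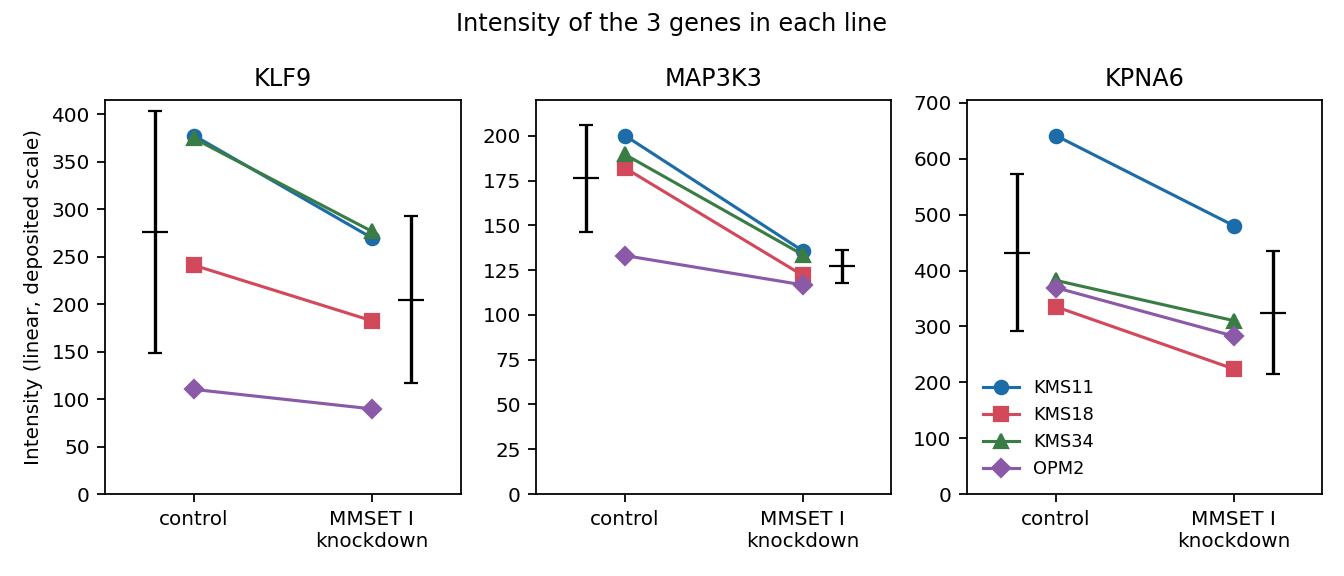
Linear intensity (y axis, from 0) of KLF9, MAP3K3 and KPNA6 in the control and knockdown array of each line (x axis), joined by a line per cell line; black bars are the mean ± SD over 4 lines. Each panel has its own y scale, so slopes cannot be compared between panels. Every line slopes down, the smallest fall in intensity being MAP3K3 in OPM2 (133 to 117). KPNA6 in KMS11 stands above the other lines in both conditions.

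The nearest relatives of the 3 genes were read from their own rows, and 0 of 6 passed limma's threshold (0 also at an unadjusted p under 0.05 and in the ordinary paired test). KLF13, KLF14 and KLF16 are zinc-finger repressors of the same subgroup as KLF9. KLF13 had control intensities of 182 (KMS11), 164 (KMS18), 143 (KMS34) and 154 (OPM2), and knockdown intensities of 201 (KMS11), 158 (KMS18), 156 (KMS34) and 154 (OPM2). The log2 difference of KLF13 was 0.06 (standard error 0.064, limma, adjusted p = 0.838), higher in 3 of 4 lines. KLF14 had a difference of -0.12 (limma, adjusted p = 0.783) that ranged from 0.20 in KMS18 to -0.49 in OPM2, and KLF16 one of -0.05 (0.897).

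MAP3K2 (MEKK2) is the closest relative of MAP3K3 and also acts on MAP2K5. Its control intensities were 222 (KMS11), 203 (KMS18), 202 (KMS34) and 196 (OPM2). Its knockdown intensities were 239 (KMS11), 210 (KMS18), 199 (KMS34) and 212 (OPM2), so the groups overlapped. The log2 difference of MAP3K2 was 0.06 (standard error 0.062, limma, adjusted p = 0.819), higher in 3 of 4 lines.

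KPNA1 and KPNA5 form the importin alpha subgroup of KPNA6. KPNA1 had a control mean of 226 ± 34.7 (SD, n = 4) and a knockdown mean of 229 ± 43.2, with a log2 difference of 0.0076 (standard error 0.068, limma, adjusted p = 0.985). It was higher in KMS11 and KMS18 and lower in KMS34 and OPM2. KPNA5 had a control mean of 101 ± 21.3 and a knockdown mean of 96.5 ± 21.5, a difference of -0.07 (0.809). A p that misses the threshold does not show that these genes kept their level, and whether a member differed from its relative was not tested, because the members were chosen for their difference.

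**Figure D2:**
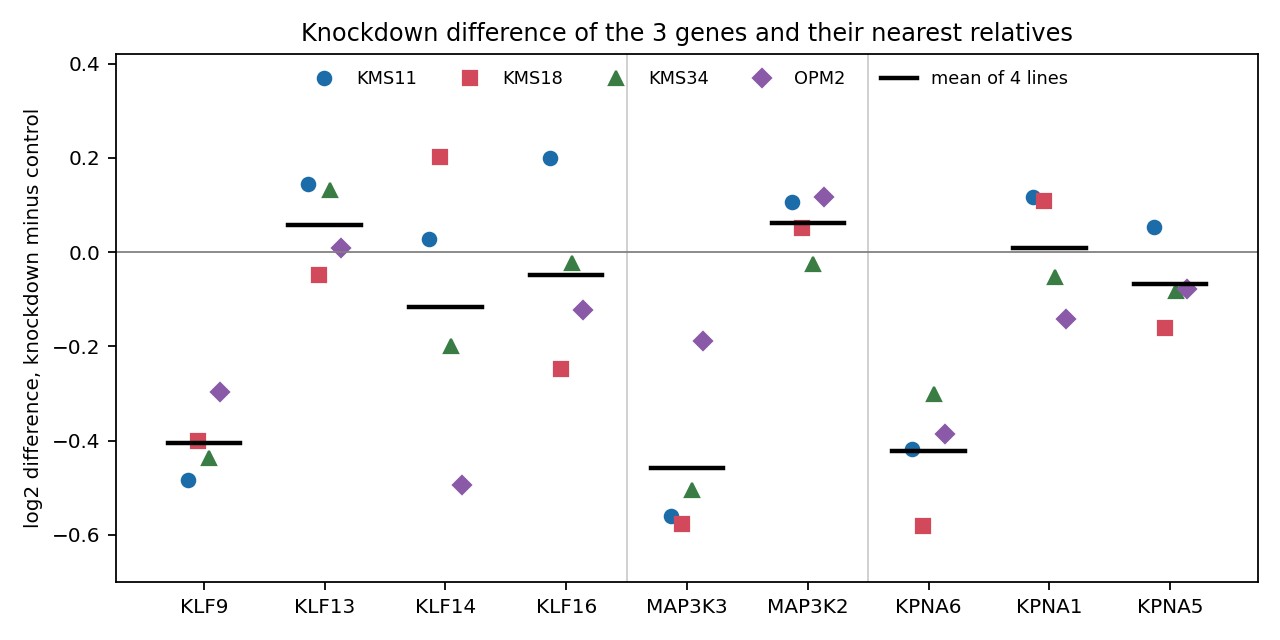
Log2 difference of knockdown minus control (y axis) in each of 4 lines (coloured points) and their mean (black bar) for KLF9, MAP3K3, KPNA6 and their nearest relatives (x axis). The 3 chosen genes have means of -0.40, -0.46 and -0.42, and the means of the relatives lie between -0.12 and 0.06. Single points of the relatives reach from -0.49 (KLF14 in OPM2) to 0.20 (KLF14 in KMS18).

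The wider families and pathways were counted over all their measured genes in the same limma fit, in which 0.117% of tested genes passed in either direction. In the 8 lists 0 genes passed. Of all tested genes 51.6% had a mean below 0 and 8.41% an unadjusted p under 0.05, and the median difference was -0.0033. The ordinary paired test called 0 genes of the whole table.

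Of the other KLF and SP family genes, 25 of 25 were tested, with 12 means below 0, 13 above and a median of 0.0041. At an unadjusted p under 0.05 were 2 lower and 1 higher. KLF15, like KLF9 a known glucocorticoid target, had a control mean of 89.9 and a knockdown mean of 72.9. The log2 difference of KLF15 was -0.32 and below 0 in 4 of 4 lines (limma, adjusted p = 0.203). SP4 had a difference of -0.24 (0.291). On the higher side were KLF17, at 0.16 (0.541) and near the brightness limit of the test, and the repressor gene KLF12, at 0.13 (0.605). The control mean of KLF17, 46.0, lay under that limit, which it passed only through its brighter knockdown arrays (mean 51.4).

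Glucocorticoid response genes had 12 of 20 tested members, 6 below 0 and 6 above, with a median of 0.011; 3 had an unadjusted p under 0.05, each higher. The clock gene PER1 had a difference of -0.14 (limma, adjusted p = 0.599) and the insulin receptor substrate gene IRS2 one of -0.09 (0.745). TXNIP, which encodes the thioredoxin-binding inhibitor, had one of 0.18 (0.568), with a value of 0.42 in OPM2, and ZBTB16 one of 0.15 (0.575). The control mean of ZBTB16, 45.1, lay under the brightness limit of the test, which it passed only through its brighter knockdown arrays (mean 50.1). FKBP5, a cochaperone gene of the glucocorticoid receptor, had a difference of -0.08 (0.764). Genes of the NRF2 and thioredoxin axis were included because NRF2 induces KLF9 and KLF9 represses TXNRD2. Of 15 listed genes 10 were tested, 7 below 0 and 3 above, with a median of -0.045 and 3 lower at an unadjusted p under 0.05. TXNRD2, the mitochondrial thioredoxin reductase gene, had a difference of 0.14 (limma, adjusted p = 0.679), which was 0.40 in KMS11 and -0.11 in KMS18. NFE2L2, the NRF2 gene, had one of 0.05 (0.896). HMOX1 had one of -0.19 (0.459) and the peroxiredoxin gene PRDX1 one of -0.14 (0.593), both below 0 in 4 of 4 lines.

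In the MAP3K family 15 of 17 other members were tested, 6 below 0 and 9 above, with a median of 0.0092 and 2 in each direction at an unadjusted p under 0.05. MAP3K5 (ASK1), the stress kinase that thioredoxin inhibits, had a control mean of 307 and a knockdown mean of 369. The log2 difference of MAP3K5 was 0.28 and above 0 in 4 of 4 lines, between 0.22 in KMS18 and 0.34 in KMS34 (limma, adjusted p = 0.203). MAP3K21 had one of 0.14 (0.590), MAP3K15 one of -0.15 (0.593) and MAP3K8 (TPL2) one of -0.28 (0.481), with -0.72 in KMS18. Below MAP3K3 in the cascade and among its partners, 20 of 30 listed genes were tested, 10 below 0 and 10 above, with a median of -0.0017. MAP2K5 had a difference of -0.05 (limma, adjusted p = 0.877) and MAPK7, the ERK5 gene, one of -0.05 (0.896). CCM2, whose protein binds MAP3K3 in the cerebral cavernous malformation complex, had one of -0.07 (0.851). MAP2K3, a p38 activator gene, had one of -0.12 (0.723), TAB1 one of -0.09 (0.755) and MYD88 one of 0.13 (0.670). TAB2, an adaptor gene of the kinase TAK1, had one of 0.18 (0.481), above 0 in 4 of 4 lines, and was the 1 gene of this list with an unadjusted p under 0.05.

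In the importin alpha family 4 of 6 other members were tested, 2 below 0 and 2 above, with a median of -0.03 and 0 at an unadjusted p under 0.05. KPNA3 had a difference of -0.12 (limma, adjusted p = 0.705), most of it from OPM2 with -0.38, and KPNA4 one of 0.09 (0.723). KPNA7 lay under the brightness limit, and KPNA2 has no named row here. Importin beta and exportin genes had 12 of 16 tested members below 0, 4 above and a median of -0.052, with 2 lower and 1 higher at an unadjusted p under 0.05. TNPO1, the transportin that carries hnRNP-type cargo without an importin alpha, had a control mean of 784 ± 82.2 (SD, n = 4) and a knockdown mean of 619 ± 64.2. The log2 difference of TNPO1 was -0.25 (KMS11), -0.37 (KMS18), -0.40 (KMS34) and -0.35 (OPM2), with a mean of -0.34 (limma, adjusted p = 0.0848). It missed the threshold here, after quantile normalization (limma, adjusted p = 0.0921) and without KMS11 (0.167). It passed where only the brighter 50% of genes were tested (0.0345) and in limma with a trended and robust variance (0.00488). Its close relative TNPO2 had a difference of 0.19 (0.534) and the exportin gene XPO7 one of -0.24 (0.265). KPNB1, the importin beta that pairs with KPNA6, had one of -0.04 (0.885), CSE1L, the exporter of importin alphas, one of -0.06 (0.851) and IPO8 one of 0.02 (0.957). Of 22 tested genes of the Ran cycle and the nuclear pore, 18 had a mean below 0, with a median of -0.041 and 3 lower at an unadjusted p under 0.05. NUP133 had a difference of -0.17 (0.519), RANBP2 one of -0.15 (0.593), NUP43 one of 0.06 (0.815) and NUTF2 one of 0.01 (0.969).

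**Figure D3:**
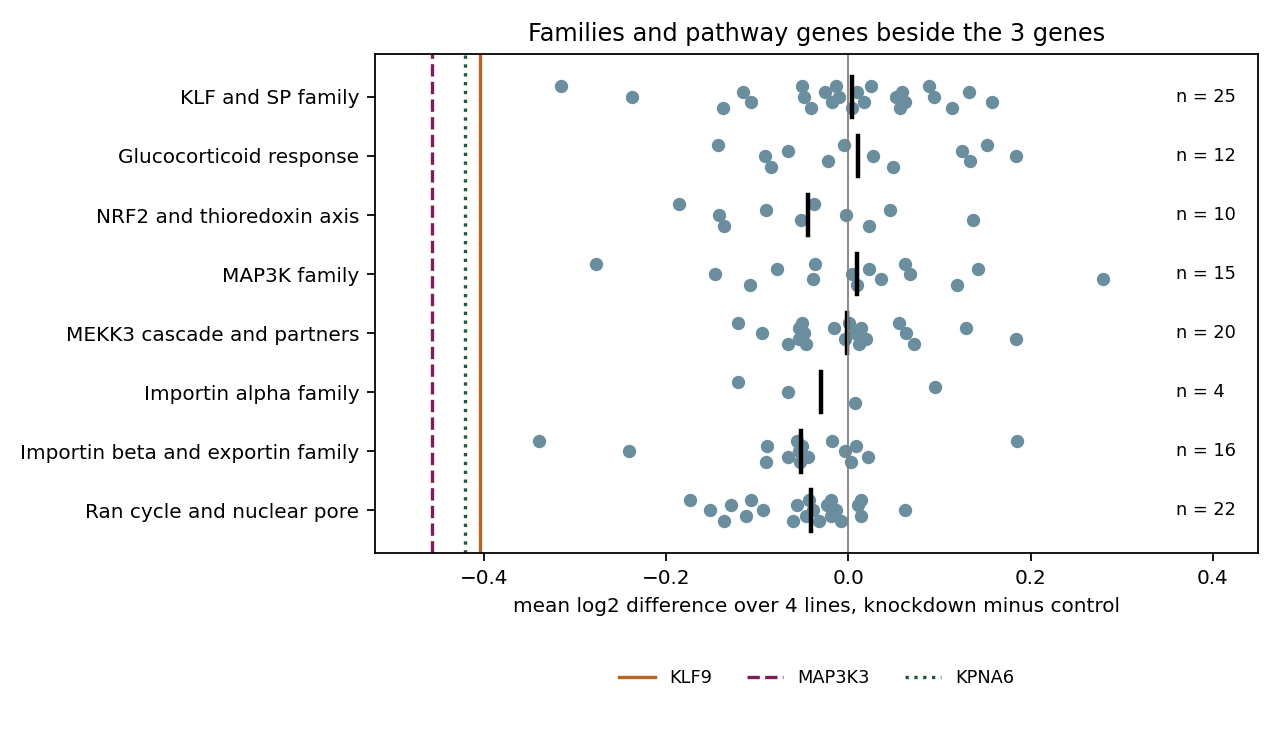
Mean log2 difference over 4 lines (x axis) of each tested gene in 8 families or pathways (y axis); black bars are medians and vertical lines the means of KLF9, MAP3K3 and KPNA6. The list medians lie between -0.052 and 0.011, and the lowest point is TNPO1 at -0.34.

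The second comparison, the level in different lines, was not used to choose the genes. It was tested with limma's moderated F test, which 75.7% of tested genes passed. All 3 genes passed, so a difference between lines is what most genes showed. Its residual comes from how the knockdown differences vary over lines, which tends to be small in genes called for the knockdown. The p-values of the 3 genes may therefore be too small.

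KLF9 varied most. Its line means, the geometric mean of both arrays, were 322 (KMS34), 319 (KMS11), 209.8 (KMS18) and 99.5 (OPM2), a 3.24-fold span (limma F test, adjusted p = 1.78e-08). The span of KLF9 exceeded that of 94.1% of tested genes and was 4.19 times its mean knockdown difference on the log2 scale. KMS34 and KMS11 did not differ beyond their spread (log2 difference of KMS11 minus KMS34 -0.01, standard error 0.089, adjusted p = 0.931). KMS18 lay 0.61 below KMS11 on the log2 scale (limma, adjusted p = 0.00011) and 1.08 above OPM2 (1.05e-06). Of the 6 pairs of lines 5 passed. Over all tested genes the share that passed was 56.5% for KMS11 and KMS18, 42.2% for KMS11 and KMS34, 54.7% for KMS11 and OPM2, 47.5% for KMS18 and KMS34, 38.9% for KMS18 and OPM2 and 49.9% for KMS34 and OPM2. KLF9 in OPM2 remained above the brightness limit of 46.7.

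KPNA6 had line means of 555 (KMS11), 345 (KMS34), 323 (OPM2) and 274 (KMS18), a 2.03-fold span (limma F test, adjusted p = 5.94e-06). KMS11 lay 0.69 above KMS34 on the log2 scale (limma, adjusted p = 7.88e-05). KMS34 and OPM2 were not separated (log2 difference 0.09, standard error 0.094, adjusted p = 0.438), nor were OPM2 and KMS18 (KMS18 minus OPM2 -0.24, standard error 0.094, adjusted p = 0.0662). KMS18 lay below KMS34 by 0.33 (KMS18 minus KMS34 -0.33, adjusted p = 0.0126), a call that quantile normalization ended (0.204). The pair of KMS18 and OPM2 passed with the filter at the 50th percentile (0.0423) and with a trended and robust variance (0.0345).

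MAP3K3 varied least between lines. Its line means were 165 (KMS11), 159 (KMS34), 149 (KMS18) and 125 (OPM2), a 1.32-fold span (limma F test, adjusted p = 0.0175). The log2 span of 0.40 was smaller than its mean knockdown difference, and 37.1% of tested genes had a smaller span. The call rested on OPM2: without that line the adjusted p was 0.322, and after quantile normalization it was 0.0542. Neighbouring lines in this order were not separated for KMS11 and KMS34 (0.05, standard error 0.11, adjusted p = 0.744), KMS34 and KMS18 (KMS18 minus KMS34 -0.09, adjusted p = 0.489) or KMS18 and OPM2 (0.26, adjusted p = 0.0763). OPM2 differed from KMS11 (0.40, adjusted p = 0.00694) and KMS34 (0.35, 0.0157).

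The levels of the 3 genes ran partly together. Over the 8 arrays Pearson's r of log2 intensity was 0.749 for KLF9 and MAP3K3, 0.644 for MAP3K3 and KPNA6 and 0.539 for KLF9 and KPNA6. The points are 4 lines measured in 2 conditions, and all 3 genes were chosen to be lower in the knockdown arrays, so no r is evidence of a link. All 3 genes were high in KMS11, and KLF9 and MAP3K3 were lowest in OPM2.

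The genes whose pattern over the 8 arrays was most like that of each member were named by the highest Pearson's r of log2 intensity. For KLF9 these were the paraoxonase gene PON2 (0.990), PHTF2 (0.989) and DBP (0.984), which encodes a circadian transcription factor. DBP had control intensities of 957 (KMS11), 518 (KMS18), 956 (KMS34) and 179.6 (OPM2), the same order of high and low lines as KLF9 up to the near-equal pair. Its knockdown intensities were 774 (KMS11), 481 (KMS18), 802 (KMS34) and 150.0 (OPM2). For MAP3K3 they were TPTEP1 (0.960), KRABD3 (0.946) and the noncoding RNA gene LINC00173 (0.912). LINC00173 had log2 differences of -0.64 in KMS11, -0.41 in KMS18 and -0.40 in KMS34, against 0.0043 in OPM2, where MAP3K3 also had its smallest difference. TPTEP1 had -0.37 (KMS11), -0.59 (KMS18), -0.31 (KMS34) and 0.0011 (OPM2). KRABD3 was lower in OPM2 as well, with -0.35 (KMS11), -0.21 (KMS18), -0.10 (KMS34) and -0.13 (OPM2). For KPNA6 they were the deacetylase gene HDAC6 (0.962), SH3BP1 (0.956) and the Polycomb component gene PCGF3 (0.955), each highest in KMS11. With only 4 lines behind 8 arrays many genes reach a high r, and these were picked out of 11109. The knockdown differences of the 4 lines are part of the pattern used for this pick, so their agreement is no separate check. The likeness did not always extend to these differences. Their r with those of KLF9 was -0.53 for PON2, 0.46 for PHTF2 and 0.20 for DBP. With MAP3K3 it was 0.92 for TPTEP1, 0.52 for KRABD3 and 0.92 for LINC00173. With KPNA6 it was 0.47 for HDAC6, -0.68 for SH3BP1 and 0.80 for PCGF3.

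**Figure D4:**
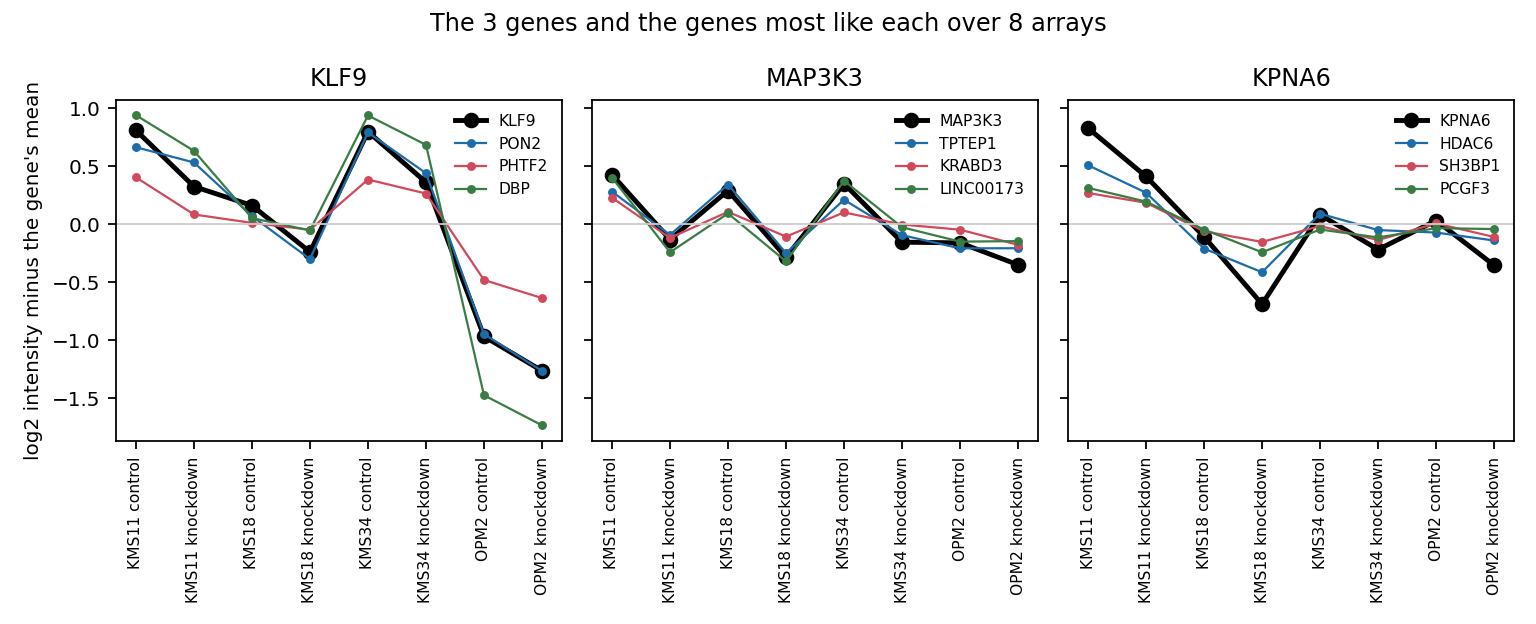
Log2 intensity minus each gene's mean (y axis) over the 8 arrays (x axis) for KLF9, MAP3K3 and KPNA6 (black) and the 3 genes most like each (coloured). KLF9 and its like genes drop in OPM2, and those of KPNA6 are highest in KMS11. MAP3K3 and KRABD3 are lower after knockdown in 4 of 4 lines, TPTEP1 and LINC00173 in KMS11, KMS18 and KMS34 only.

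The arrays themselves were alike in scale, with medians of 49.3 to 53.5 and upper quartiles of 107.6 to 109.3. Arrays of the same line correlated at 0.991 to 0.993 over tested genes on the log2 scale and those of different lines at 0.880 to 0.915. The row of NSD2, which does not separate MMSET I from longer isoforms, was 743 ± 55.2 (SD, n = 4) in controls and 656 ± 75.9 after knockdown. The log2 difference of NSD2 was -0.18, below 0 in 4 of 4 lines, and did not pass (limma, adjusted p = 0.472). GLO1, named in the series title as regulated by MMSET I, fell by 0.76 on the log2 scale (limma, adjusted p = 0.00142). Plasma cell markers were measured in 8 of 12 genes, SDC1, IRF4 and XBP1 among them, with a summed intensity of 8197 to 10954 in controls and 7910 to 11345 after knockdown. Most of that sum was IRF4 (control mean 3227), XBP1 (2017) and MZB1 (1596), while POU2AF1 (76.9) and CD27 (70.8) were dim. MZB1 had a difference of -0.06 (0.811), XBP1 of -0.06 (0.817), SDC1 of 0.12 (0.658) and CD38 of 0.17 (0.729). T and NK markers had 6 of 11 genes with a row and summed to 474 to 582 in controls and 499 to 580 after knockdown; their extremes were LCK at -0.15 (0.746), CD7 at -0.07 (0.824), CD8A at 0.07 (0.815) and NKG7 at 0.03 (0.958). Myeloid markers had 7 of 9, with CD14, LYZ and CD163 under the brightness limit and 4 tested. They summed to 942 to 1090 in controls and 963 to 1202 after knockdown. Most of this sum was CST3, with a mean of 667 in controls and 744 after knockdown. MPO had a difference of -0.12 (0.731), CD68 of -0.09 (0.741) and CST3 of 0.15 (0.578). Stromal and endothelial markers had 3 of 9, with DCN and LUM under the limit and 1 tested, summing to 104 to 109 and 102 to 112, with VWF at 0.03 (0.921). The ranges of control and knockdown arrays overlapped for each of these marker sums.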

How the data were processed

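RNA was measured on 8 Affymetrix GeneChip Human Gene 2.0 ST arrays. The authors deposited linear intensity values for 44629 rows, analysed in GeneSpring per the series text; background correction, normalization and row filter are not given in the sources used here. Log2 of the deposited intensity was taken. The annotation named 1 gene for 15835 rows, several for 0 and none for 28794; the brightest row stood for each of 14812 genes (651 had more than 1), and genes with a mean under the 25th percentile (intensity 46.7) were left out, leaving 11109.

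The knockdown was fitted with limma 3.58.1 in R 4.3.3 and a fixed term for each line; the threshold was a Benjamini-Hochberg adjusted p under 0.05 over all tested genes. Lines are the replicates (n = 4), and arrays were paired by the labelled line. Deviations from group means correlated at 0.925 to 0.932 within lines and at most at -0.135 between lines. These deviations cancel out over the lines of a group, which pushes the values between lines downwards, so those values are no separate check of the pairing. Lines were compared in the same fit, by F test and by 6 pairwise contrasts.

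The 3 genes and the gene lists were chosen with earlier results of these data known. Named genes were the 3 genes, NSD2, GLO1, the nearest relatives, per list the genes past the threshold and up to 2 per direction with the smallest p, and the 3 genes most correlated with each member; FKBP5, MAP2K5, MAPK7, CCM2, KPNB1 and CSE1L were added for their role after their values were seen. Alternatives were other scalings, filters, variance models, blocks, thresholds, the mean of a gene's rows, log2(intensity + 16) and leaving out each line. Subtracting each array's lowest value and testing all rows were added after the data were seen. The number of arrays limits the precision.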

Additional observations from a re-analysis of the deposited data

Results flagged for a closer look

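A line lying far from the other 3 was looked for in 70 values (levels and differences of named genes, and list medians), and 7 were found. Chance gives about 1 in 20, and the genes were partly picked for their values.

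The KPNA6 control of KMS11, at 641.7, lay far above the other controls (335 to 382). The other 6 values are log2 differences: -0.3068 for TAB1 in KMS34, 0.02062 for RANBP2 in KMS18, 0.1361 for NUP43 in OPM2, -0.3162 for CD7 in KMS11, 0.3811 for NKG7 in KMS34 and the median of the importin beta and exportin genes in KMS34, -0.001999.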

How the results depend on the processing

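The mean log2 differences kept their direction under all 9 alternatives, with KLF9 between -0.44 and -0.38, MAP3K3 between -0.55 and -0.41 and KPNA6 between -0.46 and -0.37. This direction is no separate support, because the genes were chosen for it. Each was lower in 4 of 4 lines, so leaving out a line could not turn the sign. Each gene has 1 row, so taking the mean of rows changed nothing. Leaving out a line gave -0.44 to -0.38, -0.55 to -0.42 and -0.46 to -0.37. The number of genes called for the knockdown, 13 (11 lower, 2 higher), was less stable. Without 1 line it was 1 to 4, all lower and 0 higher, and 0 of the 3 genes were among them: 4 with KMS11 left out, 2 with KMS34, and 1 each with KMS18 or OPM2. It was 4 (4 lower, 0 higher) with no filter on dim genes and 3 (3 lower, 0 higher) with cell line as a random block, again with 0 of the 3 genes. It was 0 (0 lower, 0 higher) with no replicate block (where 18 genes had an unadjusted p under 0.05), in the ordinary paired test and over all rows of the table. GLO1 missed the threshold with no replicate block (limma, adjusted p = 1) and in the paired test (0.483). The higher calls were 4 with the filter at the 50th percentile, and a trended and robust variance gave 29 (23 lower, 6 higher). The cause was not tested. The adjusted F p of MAP3K3 between lines was 0.0542 after quantile normalization and 0.322 without OPM2, and over its alternatives it ranged from 0.00388 to 0.322. The F test of KLF9 (at most 0.0002) and KPNA6 (at most 0.0236) passed in all 11 alternatives run.

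Some signs turned, all for differences that had not passed. Quantile normalization gave -0.057 for KPNA6 in KMS34 minus OPM2, median centring 0.022 for KLF9 in KMS11 minus KMS34 and the mean of rows 0.0077 for TAB1. Without KMS11 the differences were -0.029 for KPNA1, -0.0072 for NUTF2, -0.013 for CD38 (0.17 with all lines), 0.013 for LCK (-0.15 with all lines) and 0.010 for CD7. Without KMS18 they were -0.013 for NFE2L2, -0.026 for KPNA1, -0.0099 for IPO8, -0.016 for VWF and 0.018 for KLF16. Without KMS34 NKG7 had -0.091, and without OPM2 KLF14 had 0.010 (-0.12 with all lines).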
